A study of Mus musculus with 24 samples.

Results

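DNA methylation and demethylation enzymes were followed at the RNA level in differentiating white and brown fat precursor cells of the mouse, with and without epigallocatechin gallate (EGCG), a green tea catechin that has been described as an inhibitor of DNA methyltransferases. The set held 8 of the 37310 genes measured and was fixed by symbol, not by expression: Dnmt1, Dnmt3a, Dnmt3b, Uhrf1, Tet1, Tet2, Tet3 and Tdg. Stromal vascular cells, the mixed non-adipocyte fraction of fat, came from C57BL/6 mice aged 6 weeks, from the white adipose tissue (WAT) of the groin or the brown adipose tissue (BAT) between the shoulder blades. All groups received the same adipogenic induction cocktail (insulin, dexamethasone and a phosphodiesterase inhibitor) up to day 4, and the day 8 groups then received a medium with insulin and thyroid hormone, so every control was also a differentiating culture. The 8 groups were WAT control, WAT EGCG, BAT control and BAT EGCG, each at day 4 and at day 8, with 3 libraries per group and 24 in all. Controls received the solvent DMSO, and the dose of EGCG is not given in the sources used here.

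The RNA level is given as FPKM, which is scaled to gene length and to the reads on genes of a library. The length used was that of the longest transcript, so levels of different genes compare only roughly. Dnmt3a, for instance, has 18 annotated transcripts and Dnmt1 has 1. Replicates 1 and 2, with 39452696 to 52893848 reads per library, were tested with limma on log2(FPKM + 1), the scale of every log2 difference below. A gene was called at a Benjamini-Hochberg adjusted p under 0.05 over 14095 genes. Replicate 3 came in a separately made table with 16392420 to 41675648 reads and served for direction and ranges, not for the main tests. Ranges cover all 3 libraries of a group and so mix the tables. Tet2 and Tet3 were lower in replicate 3 than in replicates 1 and 2 of every group, also after the rescaling described below. Nothing in the labels says whether replicates were separate cultures, so the p-values measure the spread between these libraries, which may be technical. In WAT day 8 EGCG replicate 3, 5 genes took 61.0% of the reads, which scales its other genes down by a factor of 2.56, so its values are given as deposited and also rescaled by that factor. The adipocyte markers summed to 3652 to 9888 FPKM in control libraries and to 457 to 1574 FPKM in EGCG libraries, and all 7 fell with EGCG at both days in both depots. The labelled depots differed in identity genes: Zic1, a brown fat transcription factor, averaged 10.6 ± 0.56 FPKM in BAT and 0.0454 ± 0.030 FPKM in WAT controls of day 4 (SD, n = 2). Hoxc10, a posterior patterning gene, averaged 0.0291 ± 0.041 and 7.70 ± 1.1 FPKM in the same groups, while the thermogenic uncoupling protein Ucp1 reached no more than 6.97 FPKM in any library.

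In mammals DNA methylation is carried by the cytosine of CpG pairs. DNMT3A and DNMT3B place the mark on unmodified DNA, and DNMT1 copies it onto the daughter strand behind the replication fork, where UHRF1 recognises half-methylated sites and recruits it. TET1, TET2 and TET3 oxidise methylcytosine in reactions that consume oxygen and 2-oxoglutarate, and TDG excises the most oxidised forms so that base excision repair can restore an unmodified cytosine. In fat precursors the same enzymes act while dividing cells leave the cell cycle and switch on the adipocyte programme.

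In the annotation whose gene lengths match the tables (GENCODE vM1, mouse build NCBIM37, mm9), Dnmt1 lies at chr9:20711650-20757317 on the minus strand and Uhrf1 at chr17:56442744-56462909 on the plus strand. The de novo enzymes are Dnmt3a at chr12:3806007-3914443 (plus) and Dnmt3b at chr2:153475186-153513466 (plus). Tet1 is at chr10:62267318-62361866 (minus), Tet2 at chr3:133126643-133207354 (minus), Tet3 at chr6:83312367-83391672 (minus) and Tdg at chr10:82092573-82113544 (plus). Dnmt3a, Dnmt3b and Tdg each overlap a gene of the opposite strand, Gm10485 and AC159324.1, 7530422B04Rik and Glt8d2 respectively, and use of the strand in counting is not stated, so reads of these pairs could not be told apart.

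Of the promoter motifs searched, the letters of one were found in the maintenance pair and in no other member. All 8 genes matched RefSeq promoter windows (build GRCm38.p6, 13 windows, each 250 bases before to 50 bases after a start). The letters TTTCGCGC, TTTGGCGC, TTTCCCGC and TTTGCCGC, forms of the site read by the E2F factors of the cell cycle, were searched on both strands and occur in 2.26% of 32851 windows and in 2.60% of 27025 genes. They occurred in 2 members, Dnmt1 and Uhrf1. The stretches below are the matches upstream of a start, 30 bases each, read 5′ to 3′ on the strand of the gene, with the matched letters in capitals. The stretches lie at chr9:20952824-20952853 (minus strand) and at chr17:56304117-56304146 (plus strand), and the capitals begin 219 bases before a Dnmt1 start and 185 bases before a Uhrf1 start.
Dnmt1: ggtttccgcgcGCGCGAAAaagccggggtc
Uhrf1: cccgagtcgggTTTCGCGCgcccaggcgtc
Both carry the same TTTCGCGC form, in opposite orientation. Among the wider machinery the letters were found in 2 of 9 genes with a window, the chromatin remodeller Hells and its partner Cdca7. They were also found in 6 of 13 replication genes, 1 of 7 mitosis genes and 2 of 15 germline genes. Of the other letters searched, CCAAT occurred in Dnmt1, Uhrf1, Tet3 and Tdg, and in 41.1% of all genes. ACGTG occurred in Dnmt3a, Uhrf1, Tet2 and Tdg (21.8% of all genes), and TGACNNNGC in Tet1 (14.0%). No gene of the methyl-CpG reader, base excision repair, methyl donor, TET cofactor or Gadd45 lists had a match in its window, which says only that these letters were not in those windows. The members' windows held 2 to 57 CpG pairs, against a median of 7 over all windows, with the highest number at Tet2.

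At the level of RNA, by the mean of replicates 1 and 2, Dnmt1 was the most abundant member in 6 of the 8 groups. In the other groups Tdg led (WAT day 8 control) or Dnmt3a led (BAT day 8 control), but single libraries did not all keep this order. In WAT day 8 control replicate 2, Dnmt1 stood at 7.68 and Tdg at 7.67 FPKM. In BAT day 8 control replicate 3, Tdg stood at 7.77 and Dnmt3a at 6.58 FPKM. Dnmt3b and Tet1 were the lowest in every group and below the filter for testing, which required 1 FPKM in at least 2 of the 16 libraries of replicates 1 and 2. The other 6 members passed.

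**Figure D1:**
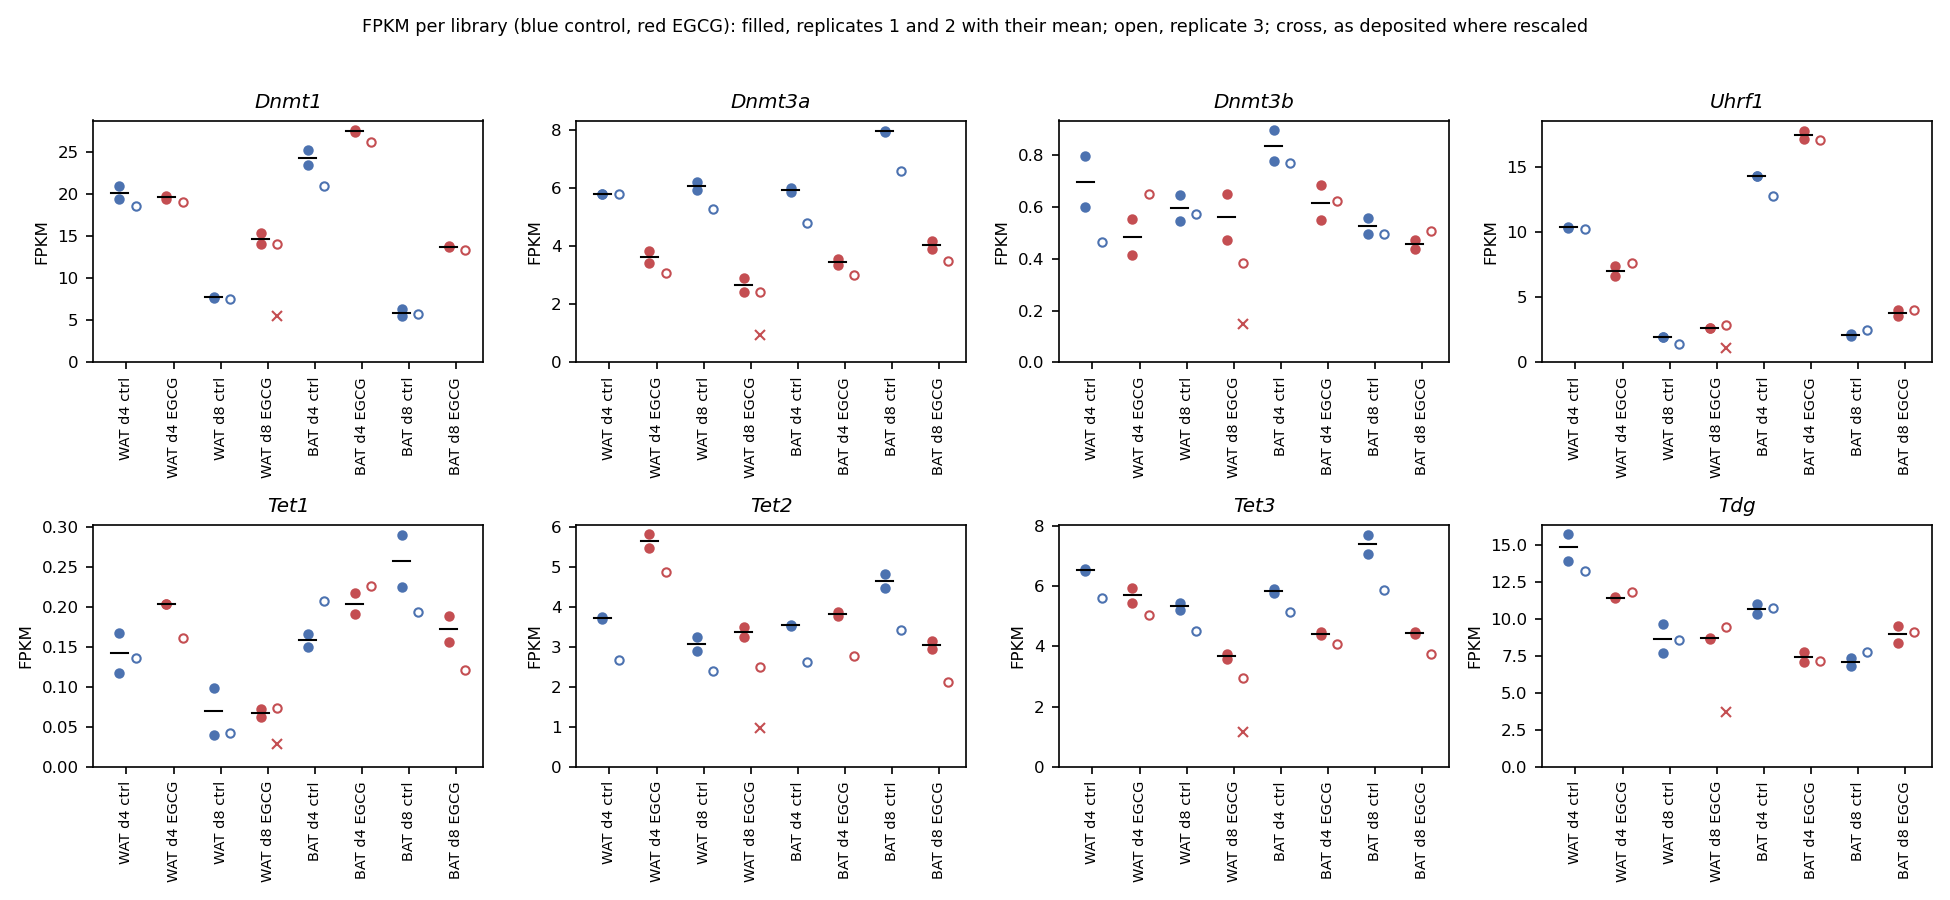
FPKM of the 8 members (vertical axis, one panel per gene) in each library of the 8 groups (horizontal axis; ctrl, control; d, day). Filled points are replicates 1 and 2, with a bar at their mean, open points are replicate 3, and crosses show the deposited values of WAT day 8 EGCG replicate 3 before rescaling. Dnmt1 and Uhrf1 were high at day 4, and all control libraries of Dnmt3a lay above all EGCG libraries.

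Dnmt1, the maintenance methyltransferase, stood at 19.4, 20.9 and 18.5 FPKM in WAT day 4 control (replicates 1, 2 and 3) and at 19.8, 19.4 and 19.0 FPKM with EGCG. In WAT day 8 control it stood at 7.81, 7.68 and 7.51 FPKM, and with EGCG at 15.3, 14.1 and, in replicate 3, 5.50 FPKM as deposited or 14.1 FPKM rescaled. The day 4 ranges of WAT overlapped, whereas at day 8 every EGCG library lay above every control library once replicate 3 was rescaled. In BAT it stood at 25.2, 23.5 and 21.0 FPKM in day 4 control and at 27.6, 27.4 and 26.2 FPKM with EGCG. BAT day 8 control held 5.49, 6.35 and 5.71 FPKM, and EGCG 13.8, 13.6 and 13.3 FPKM. Both BAT days were apart, and the day 8 gap was the wider one. With EGCG, Dnmt1 rose 1.90-fold in WAT at day 8 (log2 difference 0.84 ± 0.06 SE, adjusted p = 4.31e-07) and 2.32-fold in BAT at day 8 (1.09 ± 0.06, adjusted p = 2.23e-08). In BAT at day 4 the difference was 0.17 ± 0.06 (adjusted p = 0.0439), a call lost under 9 of the 13 alternatives tried, and in WAT at day 4 it was -0.04 with a 95% interval of -0.18 to 0.10, or -0.17 with median-ratio scaling (adjusted p = 0.0429).

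The day 8 difference stood on a decline that EGCG cultures shared only in part. In controls Dnmt1 fell from day 4 to day 8 by 1.28 on the log2 scale in WAT and by 1.87 in BAT (adjusted p = 2.27e-08 and 7.26e-10), to 0.384 and 0.243 of its day 4 level. In EGCG cultures it fell by 0.39 and 0.96, to 0.750 and 0.498 of the day 4 level. The EGCG difference was larger at day 8 than at day 4 in WAT (by 0.88 ± 0.09, adjusted p = 1.66e-05) and in BAT (by 0.92 ± 0.09, adjusted p = 7.36e-06). Ordered by mean level, the groups ran from BAT day 4 EGCG (27.5 FPKM) through BAT day 4 control, WAT day 4 control, WAT day 4 EGCG, WAT day 8 EGCG, BAT day 8 EGCG and WAT day 8 control to BAT day 8 control (5.92 FPKM). Of these neighbours, WAT day 4 control and WAT day 4 EGCG overlapped, with WAT day 8 EGCG replicate 3 left out.

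Uhrf1, the factor that brings DNMT1 to half-methylated DNA, shared the decline and differed from Dnmt1 at day 4 in WAT. WAT day 4 control held 10.4, 10.4 and 10.3 FPKM and EGCG held 6.64, 7.45 and 7.62 FPKM, with no overlap. BAT day 4 control held 14.4, 14.3 and 12.8 FPKM against 17.2, 17.8 and 17.1 FPKM with EGCG, again with no overlap but in the opposite direction. Uhrf1 thus fell with EGCG in WAT (-0.50 ± 0.06, adjusted p = 4.92e-05) and rose in BAT (0.27 ± 0.06, adjusted p = 0.00438), and the 2 depots differed in this by 0.77 ± 0.09 (adjusted p = 0.000112). At day 8 it stood at 1.91, 1.93 and 1.41 FPKM in WAT control and at 2.64, 2.63 and 1.12 FPKM with EGCG, the last being 2.88 FPKM when rescaled. BAT day 8 control held 2.03, 2.21 and 2.51 FPKM and EGCG held 3.99, 3.54 and 4.04 FPKM. At day 8 every EGCG library lay above every control library of its depot, with the rescaled value used in WAT. The rise was 1.37-fold in WAT (0.32 ± 0.06, adjusted p = 0.00100) and 1.78-fold in BAT (0.61 ± 0.06, adjusted p = 3.38e-06). In controls Uhrf1 fell between the days by 1.96 in WAT and by 2.30 in BAT, to 0.185 and 0.148 of its day 4 level, and in EGCG cultures by 1.14 and 1.96. By mean level the groups ran from BAT day 4 EGCG (17.5 FPKM) to WAT day 8 control (1.92 FPKM). Neighbours in that order did not overlap once WAT day 8 EGCG replicate 3 was left out.

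**Figure D2:**
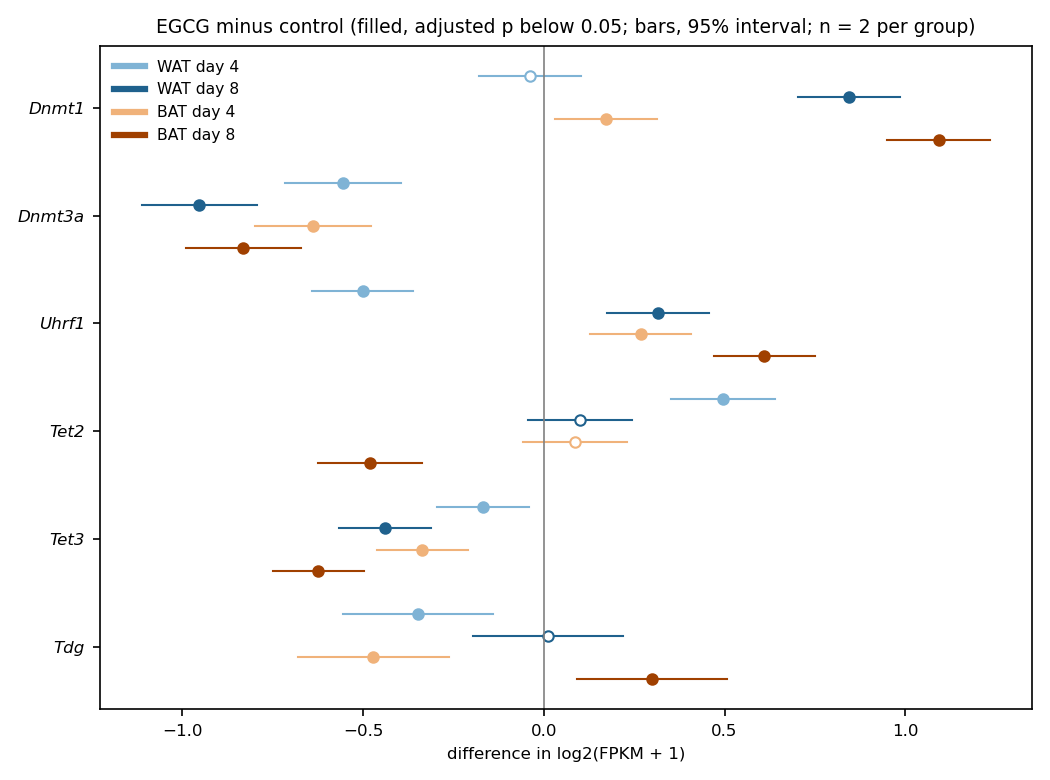
Difference in log2(FPKM + 1) between EGCG and control libraries (horizontal axis) for the 6 tested members (vertical axis) in each depot and day. Points are limma estimates with 95% intervals, filled where the adjusted p was under 0.05. Dnmt3a and Tet3 lay to the left of 0 in all 4 settings and Dnmt1 far to the right at day 8.

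Dnmt3a, the main de novo methyltransferase in these cells, was lower with EGCG in both depots and on both days. WAT day 4 control held 5.80, 5.77 and 5.79 FPKM and EGCG 3.43, 3.81 and 3.07 FPKM. WAT day 8 control held 6.21, 5.92 and 5.26 FPKM and EGCG 2.40, 2.91 and 0.939 FPKM, the last being 2.41 FPKM when rescaled. Neither pair of ranges overlapped. BAT day 4 control held 6.00, 5.84 and 4.81 FPKM and EGCG 3.34, 3.55 and 3.00 FPKM, and BAT day 8 control held 7.96, 7.92 and 6.58 FPKM and EGCG 4.17, 3.88 and 3.48 FPKM. The lowest of the 12 control libraries, at 4.81 FPKM, lay above the highest of the 12 EGCG libraries, at 4.17 FPKM. Dnmt3a fell to 0.626 of the control level in WAT at day 4 (-0.56 ± 0.07, adjusted p = 5.98e-05), to 0.438 in WAT at day 8 (-0.95 ± 0.07, adjusted p = 4.21e-07), to 0.582 in BAT at day 4 (-0.64 ± 0.07, adjusted p = 1.98e-05) and to 0.507 in BAT at day 8 (-0.83 ± 0.07, adjusted p = 6.75e-07). In WAT the EGCG difference was lower at day 8 than at day 4 (-0.40 ± 0.10, adjusted p = 0.00758), and in BAT the same difference was -0.19 with a 95% interval of -0.42 to 0.03. Over time in controls it rose in BAT (0.37 ± 0.07, adjusted p = 0.000729) and differed by 0.06 in WAT, with an interval of -0.10 to 0.22.

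Dnmt1 and Dnmt3a moved in opposite directions with EGCG at day 8. The ratio of Dnmt1 to Dnmt3a in FPKM separated EGCG from control within each depot and day, while some groups of different days or depots overlapped. It was 1.26, 1.30 and 1.43 in WAT day 8 control and 6.38, 4.83 and 5.85 with EGCG. In BAT day 8 control it was 0.689, 0.802 and 0.868, so that Dnmt3a stood above Dnmt1 in FPKM, and with EGCG it was 3.31, 3.52 and 3.83. At day 4 the ratio was 3.20 to 3.63 in WAT control and 4.02 to 4.37 in BAT control, and 5.09 to 6.20 and 7.72 to 8.72 with EGCG. In each depot and on each day the EGCG libraries had the higher ratio, with no overlap, and the ratio does not depend on the scaling of a library.

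Dnmt3b, the other de novo enzyme, lay between 0.150 and 0.898 FPKM in the deposited values and rested on 27 to 177 reads per library. Its highest mean was in BAT day 4 control, where the libraries held 0.898, 0.777 and 0.771 FPKM. BAT day 8 control held 0.498, 0.557 and 0.498 FPKM, below all 3 of them, and with EGCG the BAT day 4 libraries held 0.686, 0.549 and 0.625 FPKM. In WAT the ranges of EGCG and control overlapped on both days. Without the filter, no EGCG difference of Dnmt3b was called (adjusted p between 0.134 and 0.897), and its fall between the days in BAT control was (-0.27, adjusted p = 0.0314).

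The dioxygenases did not move as a family. Tet3 had the highest mean of them in all 8 groups, and its range overlapped that of Tet2 in the EGCG groups of WAT only, at day 4 with 5.04 to 5.95 against 4.87 to 5.82 FPKM. Tet1 stayed between 0.0284 and 0.289 FPKM, on 10 to 164 reads. Tet3 was lower with EGCG in all 4 settings, whereas Tet2 was higher in one and lower in another.

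Tet3 held 6.50, 6.57 and 5.62 FPKM in WAT day 4 control and 5.46, 5.95 and 5.04 FPKM with EGCG. These ranges overlapped only through control replicate 3, and within each table EGCG lay below control. WAT day 8 control held 5.23, 5.44 and 4.53 FPKM and EGCG 3.74, 3.60 and 1.16 FPKM, the last being 2.96 FPKM when rescaled. BAT day 4 control held 5.79, 5.92 and 5.15 FPKM against 4.39, 4.47 and 4.09 FPKM with EGCG. These 2 settings were apart, as was BAT day 8, where controls held 7.73, 7.08 and 5.86 FPKM and EGCG libraries 4.49, 4.41 and 3.73 FPKM. The fall was to 0.601 of control in BAT at day 8 (-0.62 ± 0.06, adjusted p = 1.08e-06), to 0.688 in WAT at day 8 (-0.44 ± 0.06, adjusted p = 3.57e-05) and to 0.756 in BAT at day 4 (-0.34 ± 0.06, adjusted p = 0.000469). In WAT at day 4 it was -0.17 ± 0.06 (adjusted p = 0.0272), and leaving out 1 library raised the adjusted p to as much as 0.194. Tet3 moved over time in opposite directions in the 2 control series, falling by 0.25 in WAT and rising by 0.29 in BAT (difference between depots 0.54 ± 0.08, adjusted p = 0.000386).

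Tet2 held 3.69, 3.74 and 2.68 FPKM in WAT day 4 control and 5.82, 5.48 and 4.87 FPKM with EGCG, with no overlap. In BAT day 8 control it held 4.83, 4.47 and 3.43 FPKM and with EGCG 3.15, 2.95 and 2.12 FPKM, also with no overlap and in the other direction. It rose 1.52-fold in WAT at day 4 (0.49 ± 0.07, adjusted p = 6.83e-05) and fell to 0.655 of control in BAT at day 8 (-0.48 ± 0.07, adjusted p = 3.41e-05). The 2 settings between gave no call: WAT day 8 control held 2.91, 3.26 and 2.39 FPKM against 3.26, 3.49 and 0.972 FPKM (2.49 FPKM rescaled), a difference of 0.10 with an interval of -0.04 to 0.24. BAT day 4 control held 3.54, 3.55 and 2.63 FPKM against 3.77, 3.87 and 2.77 FPKM, a difference of 0.09 with an interval of -0.06 to 0.23. Tet2 differed between the depots in its response to EGCG at day 4 (BAT minus WAT -0.41 ± 0.09, adjusted p = 0.00736) and at day 8 (-0.58 ± 0.09, adjusted p = 0.000512). It also fell in EGCG cultures between the days, by 0.60 in WAT and by 0.25 in BAT.

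Tet1 had its lowest means in WAT at day 8. WAT day 8 control held 0.0980, 0.0399 and 0.0420 FPKM and BAT day 8 control 0.224, 0.289 and 0.193 FPKM, with no overlap. Without the filter, this depot difference of Tet1 was called (0.23, adjusted p = 0.000612), as were a fall between the days in WAT EGCG (-0.17, adjusted p = 0.00323), a rise in BAT control (0.12, adjusted p = 0.0225) and a lower level with EGCG in BAT at day 8 (-0.10, adjusted p = 0.0427). A pseudocount of 1 makes log2 differences at such levels small.

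Tdg, the glycosylase that removes oxidised methylcytosine, was lower with EGCG at day 4 and not at day 8. WAT day 4 control held 15.8, 14.0 and 13.3 FPKM and EGCG 11.5, 11.4 and 11.9 FPKM, and BAT day 4 control held 10.3, 11.0 and 10.8 FPKM and EGCG 7.09, 7.74 and 7.18 FPKM. Both pairs were apart. WAT day 8 control held 9.67, 7.67 and 8.61 FPKM against 8.68, 8.71 and 3.70 FPKM (9.49 FPKM rescaled), which overlapped, and BAT day 8 control held 7.35, 6.85 and 7.77 FPKM against 8.40, 9.54 and 9.11 FPKM, which did not. The day 4 falls were -0.35 ± 0.09 in WAT (adjusted p = 0.00878) and -0.47 ± 0.09 in BAT (adjusted p = 0.00148). At day 8 the difference was 0.01 in WAT, with an interval of -0.20 to 0.22, and 0.30 ± 0.09 in BAT (adjusted p = 0.0136), where median-ratio scaling gave 0.13 (adjusted p = 0.241). The EGCG difference changed between the days in BAT by 0.77 ± 0.13 (adjusted p = 0.000476). In controls Tdg fell over time, by 0.72 in WAT and by 0.53 in BAT.

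**Figure D3:**
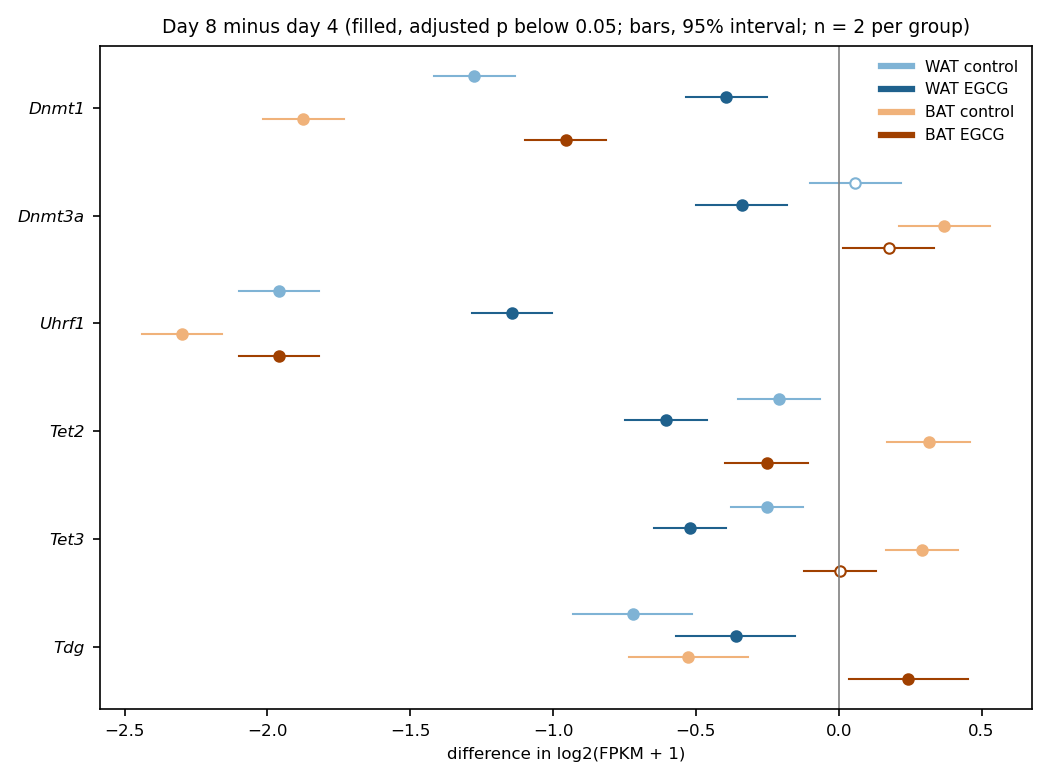
Difference in log2(FPKM + 1) between day 8 and day 4 (horizontal axis) for the 6 tested members (vertical axis) in control and EGCG cultures of each depot. Points are limma estimates with 95% intervals, filled where the adjusted p was under 0.05. In controls of both depots Uhrf1 and Dnmt1 had the largest falls of the 6, and in EGCG cultures both lay closer to 0 than in controls of the same depot.

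Counted together, 5 of the 6 tested members were called between EGCG and control in WAT at day 4 (1 higher, 4 lower), where 53.7% of all genes tested were called (34.4% higher, 19.3% lower). In WAT at day 8 the number was 4 (2 higher, 2 lower), against 63.6% of all genes (44.7% higher, 18.9% lower). In BAT at day 4 it was 5 (2 higher, 3 lower), against 48.5% (27.9% higher, 20.6% lower), and in BAT at day 8 it was 6 (3 higher, 3 lower), against 72.6% (46.5% higher, 26.1% lower). In WAT at day 4 the count fell to 3 without control replicate 1, since Tet3 and Tdg were then not called. Median log2 differences of the members were -0.26, 0.06, -0.13 and -0.09 in these 4 settings, against 0.09, 0.17, 0.03 and 0.17 for all genes tested, and median-ratio scaling turned the value of WAT day 8 to -0.11. Of all called genes 64.1%, 70.3%, 57.6% and 64.0% were higher with EGCG, and with median-ratio scaling 44.7%, 51.2%, 51.3% and 51.8%. That scaling lowered the median of all genes by over 0.1 in WAT day 4, WAT day 8 and BAT day 8, to -0.02, 0.01 and 0.02, and turned no EGCG difference of a member that had been called.

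Between day 4 and day 8, 5 members were called in WAT control, all lower, where 61.0% of all genes were called (27.7% higher, 33.2% lower). In BAT control 6 were called (3 higher, 3 lower), against 69.2% of all genes (28.7% higher, 40.4% lower). In WAT EGCG 6 were called, all lower, against 59.5% (31.8% higher, 27.7% lower), and in BAT EGCG 4 (1 higher, 3 lower), against 58.0% (29.7% higher, 28.2% lower). The 3 that rose in BAT control were Dnmt3a, Tet2 and Tet3, and none of these had risen in WAT control. The BAT EGCG count rested in part on BAT day 8 EGCG replicate 2, without which it was 2.

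Between the depots in control cultures, 3 members were called at day 4, against 55.8% of all genes (41.4% higher and 14.4% lower in BAT), and 5 at day 8, against 53.6% (31.6% higher, 22.0% lower). At day 4 BAT had more Uhrf1 (0.43 ± 0.06, adjusted p = 0.000169) and Dnmt1 (0.26 ± 0.06, adjusted p = 0.00535) than WAT, and less Tdg (-0.44 ± 0.09, adjusted p = 0.00209). The Dnmt1 difference was 0.10 with median-ratio scaling (adjusted p = 0.237). At day 8 BAT had more Tet2 (0.47), Tet3 (0.41) and Dnmt3a (0.34) and less Dnmt1 (-0.34) and Tdg (-0.25), with adjusted p from 9.41e-05 to 0.0441. The Tdg call was lost with no filter, with a replicate block (adjusted p = 0.0534) and in 3 of the fits that left out a library, and without WAT day 8 control replicate 1 the difference was -0.10 (adjusted p = 0.392). The sign of the Dnmt1 difference thus changed with the day (change -0.60 ± 0.09, adjusted p = 0.000423).

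Differences between differences were called for 2 members in the depot contrast of the EGCG response at day 4, Uhrf1 and Tet2, against 28.1% of all genes (12.0% with the higher and 16.1% with the lower difference in BAT). At day 8 there were 3, Dnmt1, Uhrf1 and Tet2, against 39.2% (19.4% and 19.7%). Between the days, the EGCG response differed for 6 members in WAT, against 49.4% of all genes (29.7% up, 19.7% down), and for 5 in BAT, against 55.4% (34.7% up, 20.6% down). The change over time in controls differed between the depots for 5, against 40.0% (14.8% higher and 25.1% lower in BAT). In the day 8 depot contrast Dnmt1 had an adjusted p of 0.0490 and was lost in 6 of 8 fits that left out a library (0.16 without BAT day 8 control replicate 1), and Uhrf1 was lost in 4 of 8, with an adjusted p of up to 0.0967. Tdg in the day contrast of WAT was 0.36 (adjusted p = 0.0431), was lost in 6 of 8 such fits and was 0.21 without WAT day 8 control replicate 2. Tet3 in the same contrast was lost in 2 of 8, with an adjusted p of up to 0.0663.

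The summed FPKM of DNA replication genes moved with Dnmt1 and Uhrf1, except with EGCG in WAT at day 4, where the sum fell while Dnmt1 was not called. The 15 S phase genes, such as the Mcm helicase subunits and the ribonucleotide reductases, summed to 231 to 244 FPKM in WAT day 4 control and to 281 to 292 FPKM in BAT day 4 control. With EGCG at day 4 they summed to 200 to 209 FPKM in WAT and to 363 to 378 FPKM in BAT. At day 8 they summed to 81.1 to 86.6 and 79.5 to 87.0 FPKM in the controls and to 119 to 121 (rescaled replicate 3 included) and 131 to 138 FPKM with EGCG. All 15 fell between the days in both control series, as did all 8 mitosis genes. With EGCG at day 8 the S phase genes rose in 9 and fell in 1 of 15 in WAT (median 0.23) and rose in 10 and fell in 2 in BAT (median 0.43), led by Rrm2 (1.52 and 1.63) and Rrm1 (0.97 and 1.30), the subunits of ribonucleotide reductase. The mitosis genes summed to 16.5 to 17.0 FPKM in WAT day 8 control and 18.2 to 20.2 FPKM with EGCG, with 1 of 8, Cdc20, called higher. In BAT at day 8 5 of 8 were called higher (sums of 14.8 to 19.2 against 21.1 to 22.1 FPKM), and none of these with median-ratio scaling. At day 4 EGCG lowered 5 of 15 S phase and 7 of 8 mitosis genes in WAT and raised 11 of 15 and lowered 1 of 8 in BAT, and Uhrf1 was likewise lower in WAT and higher in BAT. Of all genes tested, EGCG raised 44.7% and lowered 18.9% in WAT at day 8, and 46.5% and 26.1% in BAT. At day 4 these shares were 34.4% and 19.3% in WAT and 27.9% and 20.6% in BAT. Between the days, 33.2% of all genes fell in WAT control and 40.4% in BAT control. With median-ratio scaling 9 of the 15 S phase genes were lower in WAT at day 4, 4 were higher in WAT at day 8, and 7 were higher in BAT at day 4. Of all 14095 genes, that scaling gave 4131 lower, 4087 higher and 3443 higher in these settings. The WAT day 8 count of 4 in 15 thus did not exceed the share of all genes.

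**Figure D4:**
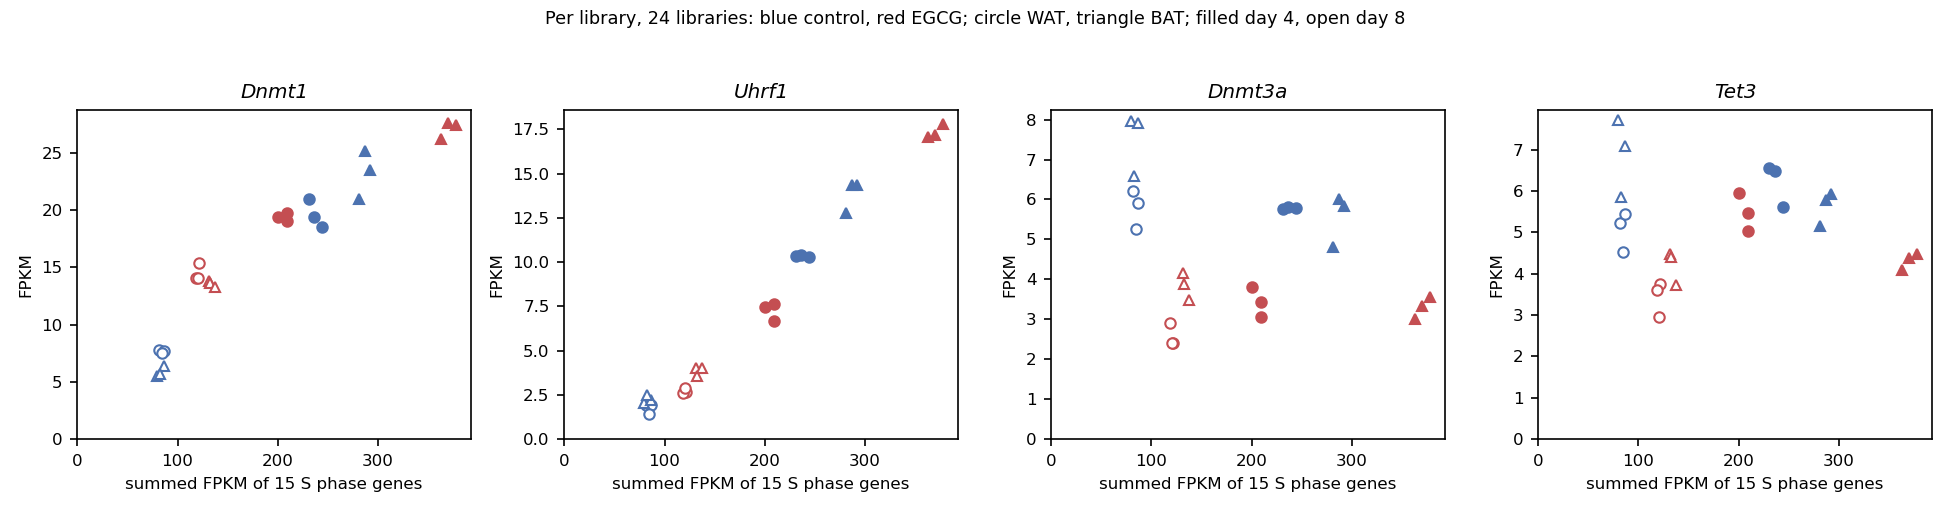
FPKM of Dnmt1, Uhrf1, Dnmt3a and Tet3 (vertical axes) against the summed FPKM of 15 S phase genes (horizontal axes) in 24 libraries. WAT day 8 EGCG replicate 3 is rescaled. Dnmt1 and Uhrf1 were highest in BAT day 4 EGCG, where the sum was also highest, while every control library of Dnmt3a lay above every EGCG library along the whole axis.

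Dnmt1 was higher with EGCG at day 8 also relative to Pcna, the sliding clamp of the replication fork. Pcna was the only S phase gene used for such a ratio, and the result depends on that choice. Rrm1 and Rrm2 rose more than Dnmt1 with EGCG at day 8 in both depots. The ratio of Dnmt1 to Pcna in FPKM was 0.270, 0.252 and 0.252 in WAT day 8 control and 0.421, 0.381 and 0.386 with EGCG. In BAT day 8 control it was 0.193, 0.205 and 0.206 and with EGCG 0.395, 0.397 and 0.357. At day 4 it lay between 0.218 and 0.284 in all 4 groups. The EGCG libraries of day 8 had the highest ratios of the series, with no overlap with any other group. In bulk RNA, fewer cells of a type and less RNA per cell cannot be told apart, and the part of cycling cells in the levels of Dnmt1 and Uhrf1 was not tested.

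The genes most like each member in their profile over the 16 libraries of replicates 1 and 2 were taken from 12709 genes with a mean of at least 1 FPKM, and the correlations describe libraries that share groups. For Dnmt1 they were Dbf4, an activator of replication origins (r = 0.990), Anp32b (r = 0.986) and Rcc1 (r = 0.985), and over the 8 libraries of replicate 3 these had r of 0.986 to 0.993. For Uhrf1 they were the mitotic genes Kif20b, Nek2 and Tpx2 (r = 0.991 to 0.994). For Dnmt3a they included Tmem135 and Sort1 (both r = 0.958), with r of 0.923 and 0.928 in replicate 3. Among the members, Dnmt1 went with Uhrf1 (r = 0.904) and Dnmt3a with Tet3 (r = 0.861), and Dnmt1 and Dnmt3a ran against each other (r = -0.514). The closest profile to Tet2 was that of Smtnl2 (r = 0.944), to Tet3 that of Jhdm1d, a histone demethylase (r = 0.942), and to Tdg that of Sdad1 (r = 0.902).

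Other genes of the pathway were counted in lists that had been chosen with earlier results known. Among 9 tested genes of the wider machinery, which holds cofactors of DNMT1 and of imprint maintenance, EGCG raised 2 and lowered 3 in WAT at day 4, raised 3 and lowered 1 in WAT at day 8 and in BAT at day 4, and raised 6 and lowered 1 in BAT at day 8 (medians -0.07, 0.18, 0.05 and 0.36). Among all genes tested, 34.4%, 44.7%, 27.9% and 46.5% were higher and 19.3%, 18.9%, 20.6% and 26.1% lower in these settings, the background for this and the following lists. At day 8 the leading genes were the imprinting factor Zfp57 (0.51 in WAT and 0.90 in BAT), its corepressor Trim28 (0.50 and 0.84) and the insulator protein Ctcf (0.23 and 0.70). Hells and Cdca7, a remodeller and its partner needed for methylation of packed chromatin, fell over time in controls by 1.34 and 1.14 in WAT and by 1.88 and 2.01 in BAT, alongside Uhrf1. Uhrf2, the paralog of Uhrf1, averaged 47.7 FPKM in BAT day 8 control and 32.4 FPKM with EGCG, a fall of 0.55 on the log2 scale, while it rose by 0.32 in WAT at day 4.

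Most genes of the methyl-CpG reader list, which also holds Mbd3, rose with EGCG. Of 8 tested, 6 rose in each of the 4 settings, and 2, 1, 0 and 2 fell (medians 0.28, 0.38, 0.26 and 0.34). Mbd1, Zbtb33, Zbtb4 and Zbtb38 were among those that rose in all 4. Mbd1 rose by 0.84, 0.56, 0.70 and 0.83 in WAT day 4, WAT day 8, BAT day 4 and BAT day 8, for instance from 12.5 to 23.0 FPKM in the last. Mbd3, a subunit of the NuRD repressor, rose by 0.80 and 1.17 at day 8 and fell by 0.32 in WAT at day 4. Mbd4, a glycosylase for mismatched thymine like TDG, fell by 0.31, 0.46 and 0.35 in WAT day 4, WAT day 8 and BAT day 8 and differed by -0.07 without a call in BAT day 4. With median-ratio scaling 4 or 5 of the 8 listed genes rose in each setting.

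**Figure D5:**
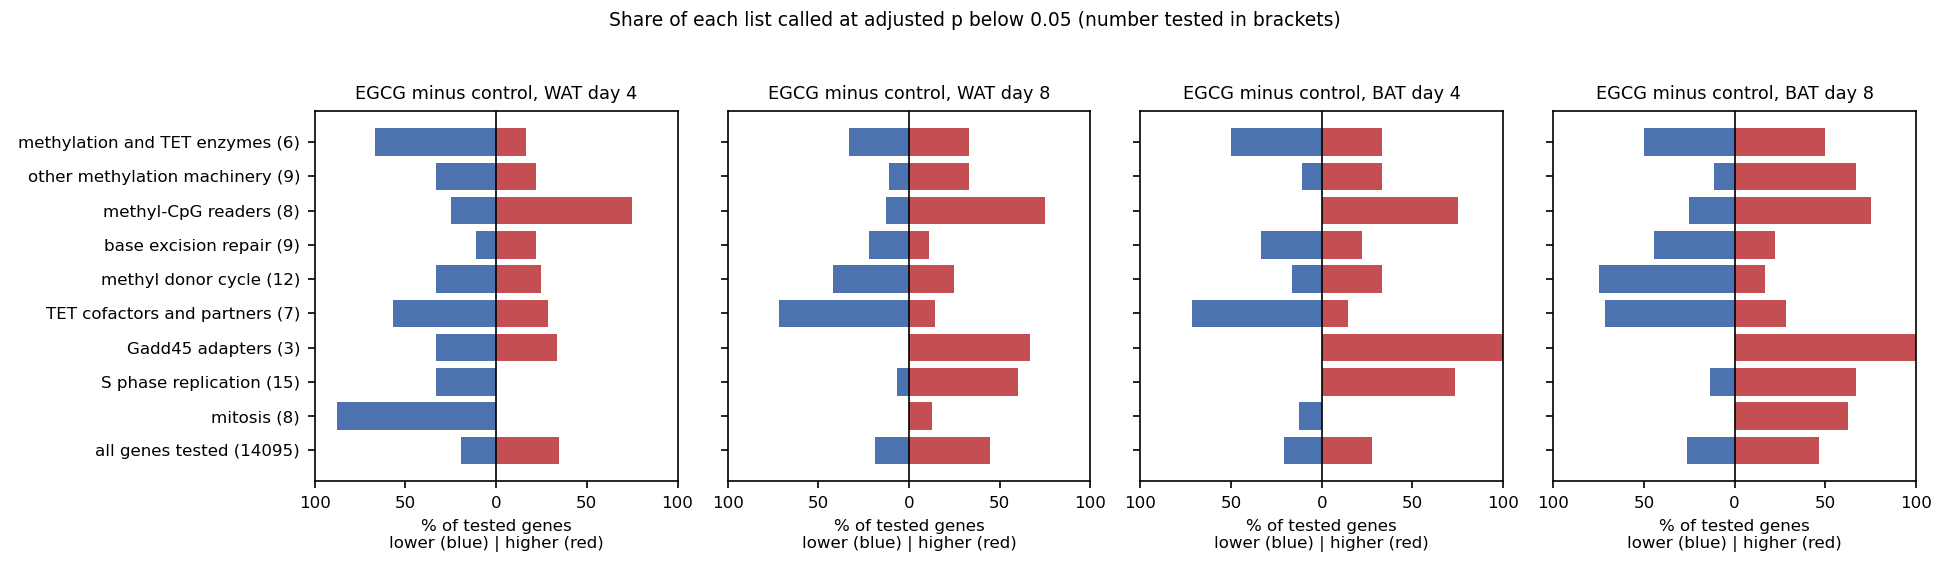
Percent of the tested genes of each list that were called higher (red, to the right) or lower (blue, to the left) with EGCG, in 4 panels for depot and day, with the number tested in brackets. The bottom bar gives all 14095 genes tested. Methyl-CpG readers lay mostly to the right in every panel and TET cofactors mostly to the left.

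Downstream of TET and TDG, 9 base excision repair genes showed calls in both directions (2 higher and 1 lower in WAT day 4, 1 and 2 in WAT day 8, 2 and 3 in BAT day 4, 2 and 4 in BAT day 8). Parp1, the strand break sensor, fell in all 4 settings, by 0.47, 0.17, 0.52 and 0.40. Apex1, the endonuclease that cuts after the glycosylase, rose at day 8 by 0.43 in WAT and by 0.61 in BAT. Neil3 fell between the days in controls, from 2.40 to 0.353 FPKM in WAT and from 3.96 to 0.217 FPKM in BAT.

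Genes that supply or tune the TET reaction were mostly lower with EGCG. Of 7 tested, 4, 5, 5 and 5 fell in WAT day 4, WAT day 8, BAT day 4 and BAT day 8, and 2, 1, 1 and 2 rose (medians -0.14, -0.34, -0.27 and -0.88). Idh2, the mitochondrial enzyme that makes 2-oxoglutarate, fell by 1.24, 0.93, 0.88 and 2.42, in BAT at day 8 from 99.4 to 17.7 FPKM. Idh1, its cytosolic counterpart, fell by 0.25, 0.34, 0.88 and 1.48. D2hgdh, which clears 2-hydroxyglutarate, an inhibitor of the TET enzymes, fell by 0.84 in BAT at day 8. Cxxc5, a CXXC zinc finger protein, rose in all 4, by 0.25 to 0.80. Adipocyte markers moved with these genes, and their part in the changes of Idh1 and Idh2 was not tested.

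The methyl donor cycle, which makes S-adenosylmethionine and clears its product, had 9 of 12 tested genes lower and 2 higher with EGCG in BAT at day 8 (median -0.51), and mixed calls elsewhere (3 higher and 4 lower in WAT day 4, 3 and 5 in WAT day 8, 4 and 2 in BAT day 4). Ahcyl2, a homolog of the enzyme that clears S-adenosylhomocysteine, fell at day 8 by 1.57 in WAT and by 1.69 in BAT. Nnmt, which uses the donor on nicotinamide, fell in all 4 settings by 1.06, 0.43, 1.56 and 0.87. Mtrr, which reactivates methionine synthase, rose at day 8 by 0.63 and 0.99. Of the Gadd45 adapters, which have been linked to active demethylation and to stress, Gadd45g fell by 1.67 in WAT at day 4 and rose by 0.45, 0.51 and 0.85 in the other settings. Gadd45a rose 3.51-fold in WAT at day 8. Of the 3 adapters tested, EGCG raised 1 and lowered 1 in WAT at day 4 and raised 2 in WAT at day 8. In BAT it raised all 3 on both days.

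Germline genes that promoter methylation keeps silent in somatic cells stayed near 0. Of 16 such genes, among them Dazl, Ddx4 and Mael, 15 did not reach 1 FPKM in any library, and their highest value was 0.494 FPKM, of Sycp3. The exception was Brdt, at 0.435 to 1.90 FPKM, which was called in none of the 4 EGCG comparisons. Without Brdt the 15 genes summed to 0.349, 0.333 and 0.346 FPKM in BAT day 8 EGCG and to 0.668, 0.758 and 0.720 FPKM in its control. In WAT at day 8 the sums were 0.586, 0.398 and, as deposited, 0.127 FPKM with EGCG against 0.572, 0.740 and 0.360 FPKM. At day 8 the EGCG sums lay below the controls in BAT and overlapped them in WAT. At day 4 in BAT they overlapped, with 0.178, 0.425 and 0.521 FPKM against 0.275, 0.809 and 0.588 FPKM. Counted over all 16 genes, 13, 12 and 8 were listed above 0 in BAT day 8 EGCG and 6, 8 and 8 in its control. DNA methylation itself was not analysed here.

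Markers of other cell types also differed between the groups. Endothelial markers summed to 11.0 to 21.6 FPKM in control and to 28.6 to 37.9 FPKM in EGCG libraries, with 4 or 5 of 5 higher in each setting. Macrophage markers summed to 8.80 to 25.1 FPKM in controls and 10.8 to 27.7 FPKM with EGCG, higher at day 4 and lower at day 8. Skeletal muscle markers summed to 4.16 to 27.2 FPKM over all libraries. Stromal markers summed to 925 to 5337 FPKM, and at day 8 5 of 5 fell with EGCG in WAT and 4 of 5 in BAT. The part of these in the members' levels was not tested.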

How the data were processed

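RNA of 24 libraries was sequenced, and the authors deposited FPKM values per Ensembl gene in 2 tables, one with replicates 1 and 2 (16 libraries) and one with replicate 3 (8 libraries). The submitters' processing notes name FastQC 0.11.9, HISAT2 2.2.0, HTSeq 0.11 and build mm9. The FPKM formula and use of the strand are not given in the sources used here. Multiplying FPKM by gene length gave whole reads (tolerance 0.01) for at least 99.83% of values in every library, and the lengths equalled the longest GENCODE vM1 transcript for all 37310 genes. Tests used limma 3.58.1 (R 4.3.3) on log2(FPKM + 1) with 1 mean per group, an intensity trend and 16 libraries, since the tables were made separately. Genes needed 1 FPKM in at least 2 libraries, which left 14095, and p-values were two-sided, Benjamini-Hochberg adjusted within each of 15 comparisons, and called under 0.05. The depth of the libraries covers counting error only, and 3 reads is the limit that a count of 0 allows. Fold changes on the log2(FPKM + 1) scale understate changes of low genes.

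All 8 members are named. From each other list, up to 3 called genes per comparison were named by the largest log2 difference, given a mean of at least 1 FPKM in either group and 1 direction in all 3 replicates, and the other list genes named were chosen after their values were seen. Some genes that these rules name are not reported here. The members and lists were chosen with earlier results of these data known. Alternatives were a pseudocount of 0.1, no filter, median-ratio scaling, quantile normalization, limma-voom on recovered reads, a replicate block, both tables together, and leaving out each library. Rescaling WAT day 8 EGCG replicate 3 was added after seeing the data. Deviations of same-numbered libraries from their group means correlated between -0.08 and 0.08 over 28 pairs of groups, so the numbers were not taken to pair samples. Figures used Python 3.11.15 and matplotlib 3.10.9.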

Additional observations from a re-analysis of the deposited data

Results flagged for a closer look

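Differences between differences past the threshold are given on the log2 scale, from limma, and each states that the same contrast differed between 2 depots or 2 days. The EGCG difference was larger in BAT than in WAT at day 4 for Uhrf1 (0.77) and lower for Tet2 (-0.41). At day 8 it was larger in BAT for Dnmt1 (0.25) and Uhrf1 (0.29) and lower for Tet2 (-0.58). Leaving out 1 library gave 0.16 to 0.34 for Dnmt1 (adjusted p up to 0.180) and 0.23 to 0.36 for Uhrf1 (adjusted p up to 0.0967) at day 8.

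Between day 4 and day 8 in WAT, the EGCG difference moved up for Dnmt1 (0.88), Uhrf1 (0.82) and Tdg (0.36) and down for Dnmt3a (-0.40), Tet2 (-0.39) and Tet3 (-0.27). In BAT it moved up for Dnmt1 (0.92), Uhrf1 (0.34) and Tdg (0.77) and down for Tet2 (-0.57) and Tet3 (-0.29). In WAT, leaving out 1 library gave 0.21 to 0.51 for Tdg (adjusted p up to 0.160) and -0.32 to -0.22 for Tet3 (adjusted p up to 0.0663).

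The change from day 4 to day 8 in control cultures was lower in BAT than in WAT for Dnmt1 (-0.60) and Uhrf1 (-0.34), and higher for Dnmt3a (0.31), Tet2 (0.52) and Tet3 (0.54). The adjusted p-values of all these differences ran from 7.36e-06 (Dnmt1, days in BAT) to 0.0490 (Dnmt1, depots at day 8).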

How the results depend on the processing

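Over 1290 recomputed differences of the members, 1148 kept direction and side of the threshold, 119 lost their call, 22 gained one and 1 reversed, Tdg in the change of the EGCG difference between days in WAT (-0.054 with both tables and a replicate block). That setting, with WAT day 8 EGCG replicate 3 as deposited, lowered the members called with EGCG to 2 (WAT day 4), 2 (WAT day 8) and 1 (BAT day 4), between days to 3 in WAT control, 3 in BAT control and 2 in BAT EGCG, between depots to 0 at day 4 and 0 at day 8, and for differences between differences to 0 (depots, day 4), 0 (depots, day 8), 1 (days, WAT), 1 (days, BAT) and 0 (depots, control days). Without that library or with it rescaled, 83 of 90 differences were as reported. With a replicate block on replicates 1 and 2, 85 of 90 were as reported, and members called with EGCG numbered 5, 4, 4 and 6. The replicate numbers were not taken to pair the libraries, although low correlations of their deviations cannot exclude a shared cell preparation.

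Leaving out 1 library gave 3 to 5, 4 to 4, 4 to 5 and 5 to 6 members called with EGCG, 4 to 5, 6 to 6, 6 to 6 and 2 to 4 between days, 2 to 3 and 4 to 5 between depots, and 2 to 2, 1 to 3, 4 to 6, 5 to 5 and 4 to 6 for differences between differences. The lowest, 1 for depots at day 8, came without BAT day 8 EGCG replicate 1, BAT day 8 control replicate 1 or WAT day 8 EGCG replicate 2. Dnmt3b and Tet1 rested on 10 to 177 reads, where small differences were not detectable at this depth.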
